A study of Mus musculus with 12 samples.

Results

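The 10 genes described here encode core enzymes of mitochondrial fatty acid beta-oxidation. They are Acadvl, Acadl, Acadm, Acads, Hadha, Hadhb, Hadh, Echs1, Acaa2 and Etfdh. They were chosen by name, as enzymes of 1 pathway, by a rule that uses no measured value. They are 10 of the 23359 genes in the deposited table. All 10 passed the filter on low values, at least 1 FPKM in at least 3 libraries, as did 13761 genes in all. FPKM is the number of fragments per length of transcript and per mapped fragments in a library, so levels of different genes can be set side by side.

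RNA was sequenced from macrodissected skin of C3H/HeJ mice, an inbred strain, in 12 libraries of 4 groups with 3 libraries each. Normal skin, for which the labels give no time, formed the first group. Fibrotic skin was taken at 6 weeks or, as a separate group, at 20 weeks. The last group, called treated skin here, was taken at 20 weeks and carries the label CD36highCD90+ Treated. In the study's design text this treatment is a transplantation of CD36highCD90+ fibroblasts in skin fibrosis. The labels give no genotype, sex or age, leave out the cause of the fibrosis and the time and route of the cells, and name no control that received other cells. It is not stated that replicate libraries stand for separate mice, and p-values therefore measure the spread between these libraries, which may in part be technical. Whole skin is a mixture of cell types, and in such bulk samples fewer cells of a type and less RNA per cell cannot be told apart. The files hold no read counts, so the depth behind each value is unknown. The protocol gives only the sequencing aim, at least 30000000 reads per sample.

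Beta-oxidation shortens a fatty acyl-CoA in the mitochondrial matrix by repeated rounds of the same reactions: an oxidation by an acyl-CoA dehydrogenase, a hydration, an oxidation by an NAD-dependent dehydrogenase, and a cleavage by a thiolase that releases acetyl-CoA. The dehydrogenases divide the work by chain length, and the electrons they remove pass through the electron transfer flavoprotein and its ubiquinone oxidoreductase to the respiratory chain. Heart and skeletal muscle, brown fat and liver are known for high activity of the pathway, and in skin it serves, among others, lipid-rich cells.

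Promoter windows from RefSeq, build GRCm38.p6, were found for 9 of the 10 genes. Each window runs from 250 bases before to 50 bases after the gene's start. Hadha and Hadhb, which encode the subunits of 1 protein, lie head to head on chromosome 5. Their RefSeq starts, at positions 30154980 and 30155253, are 273 bases apart, and their windows share 228 bases, from 30155003 to 30155230. The Hadhb window is shown because this stretch stands before both RefSeq starts. In the GENCODE M21 annotation Hadha reaches position 30155162, so by that annotation part of the stretch lies inside Hadha. The Hadhb window is read from the plus strand at chr5:30155003-30155302, and the capitals mark the bases that also lie in the Hadha window.

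Hadhb: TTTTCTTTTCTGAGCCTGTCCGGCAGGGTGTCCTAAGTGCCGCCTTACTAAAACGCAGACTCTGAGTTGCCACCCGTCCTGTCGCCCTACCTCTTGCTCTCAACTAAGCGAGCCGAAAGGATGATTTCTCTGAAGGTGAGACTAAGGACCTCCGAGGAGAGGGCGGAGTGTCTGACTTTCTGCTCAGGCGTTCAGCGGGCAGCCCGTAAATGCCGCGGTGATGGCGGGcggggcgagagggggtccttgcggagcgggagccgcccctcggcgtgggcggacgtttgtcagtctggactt

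Acadm and Echs1 are shown because they were lower in fibrotic than in normal skin at both times. Capitals mark matches, on either strand, to any of the 4 motifs AGGTCA, the half-site of many nuclear receptors, GGGCGG, known as the GC box, GCATGCGC, the core of the NRF1 site, or CCAAT. The Acadm window is read from the minus strand of chr3:153944594-153944893, and the Echs1 window from the minus strand of chr7:140116372-140116671.

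Acadm: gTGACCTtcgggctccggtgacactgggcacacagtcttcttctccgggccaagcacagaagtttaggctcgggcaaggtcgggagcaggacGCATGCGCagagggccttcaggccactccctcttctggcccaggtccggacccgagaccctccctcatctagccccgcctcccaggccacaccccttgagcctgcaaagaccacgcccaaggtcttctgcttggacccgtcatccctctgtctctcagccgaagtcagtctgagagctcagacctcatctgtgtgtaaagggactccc

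Echs1: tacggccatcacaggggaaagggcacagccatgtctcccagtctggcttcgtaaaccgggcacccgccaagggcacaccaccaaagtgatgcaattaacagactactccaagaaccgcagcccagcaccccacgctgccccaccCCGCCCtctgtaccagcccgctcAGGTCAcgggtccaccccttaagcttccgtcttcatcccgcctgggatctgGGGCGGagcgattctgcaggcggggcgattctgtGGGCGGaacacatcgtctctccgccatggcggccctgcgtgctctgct

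Among all 32851 RefSeq windows of this length, AGGTCA was present on either strand in 16.3%. It was found in 3 of the 9 members, Acadvl, Acadm and Echs1. The direct repeat AGGTCANAGGTCA, which is bound by PPAR receptors, occurred in 0.0396% of windows and in 0 members. The site TCAAGGTCA, which is bound by estrogen-related receptors and contains AGGTCA, occurred in 0.423% of windows and in 0 members. The NRF1 core was present in 2 members, Acadm and Etfdh, against 2.71% of all windows. GC boxes were present in 7 members, all but Acadvl and Acadm, against 35.7% of windows, and CCAAT in 2, Hadh and Etfdh, against 37.4%. These are matches of letters in 1 window per gene, which show neither binding nor its absence.

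The levels are given first by role, beginning with the acyl-CoA dehydrogenases. Acadvl, which acts on very long chains, stood at 59.3, 55.5 and 70.4 FPKM in normal skin, 48.2, 45.7 and 50.3 in the 6-week fibrotic group, 52.4, 56.7 and 50.6 at 20 weeks, and 47.5, 56.6 and 60.1 in treated skin. All 6-week libraries lay below all normal libraries, while the other groups overlapped normal skin. Acadl, which acts on long chains, stood at 57.4, 49.7 and 86.3 FPKM in normal skin, 49.7, 53.4 and 62.4 at 6 weeks, 66.2, 63.1 and 56.6 at 20 weeks, and 58.6, 44.1 and 45.7 in treated skin. Its groups all overlapped normal skin, which had the highest library and the widest spread. Acadm, the medium-chain enzyme, stood at 74.3, 84.0 and 99.6 FPKM in normal skin, 44.5, 46.3 and 51.4 at 6 weeks, 50.9, 51.0 and 52.6 at 20 weeks, and 40.5, 69.4 and 77.1 in treated skin. All 6 fibrotic libraries lay below all normal ones, and the treated libraries were divided, with replicate 1 the lowest of all 12 libraries and replicate 3 within the normal range. Acads, the short-chain enzyme, stood at 14.4, 9.11 and 9.97 FPKM in normal skin, 7.18, 6.69 and 6.54 at 6 weeks, 7.53, 9.80 and 9.76 at 20 weeks, and 9.56, 16.02 and 26.9 in treated skin. The 6-week libraries were the lowest of all, and treated replicates 2 and 3 were the highest of all.

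The hydration step is carried out by Echs1, the hydratase for short chains, and, for long chains, by the trifunctional protein that Hadha and Hadhb encode. Echs1 stood at 95.2, 79.9 and 89.2 FPKM in normal skin, 46.3, 49.8 and 65.0 at 6 weeks, 58.7, 59.4 and 66.7 at 20 weeks, and 65.2, 83.1 and 86.0 in treated skin. All 6 fibrotic libraries lay below all normal ones, and treated replicate 1 lay among the fibrotic libraries while replicates 2 and 3 were within the normal range. Hadha, the subunit with the hydratase and dehydrogenase activities, stood at 59.6, 65.9 and 68.0 FPKM in normal skin, 46.1, 48.5 and 55.7 at 6 weeks, 61.4, 62.0 and 62.1 at 20 weeks, and 46.8, 52.4 and 53.7 in treated skin. The 6-week and the treated libraries lay below all normal libraries and below all 20-week libraries, which fell inside the normal range. Hadhb, the thiolase subunit, stood at 118, 128 and 172 FPKM in normal skin, 95.2, 119 and 123 at 6 weeks, 123, 116 and 129.7 at 20 weeks, and 82.3, 93.7 and 92.9 in treated skin. The 3 treated libraries were the lowest of the 12, and the fibrotic libraries overlapped normal skin.

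Hadh, the dehydrogenase for short and medium chains, stood at 92.2, 84.2 and 95.3 FPKM in normal skin, 69.5, 83.4 and 88.8 at 6 weeks, 82.1, 83.5 and 94.0 at 20 weeks, and 65.0, 93.2 and 96.7 in treated skin. All groups overlapped, and the treated libraries held both the lowest and the highest value. Acaa2, the thiolase for shorter chains, stood at 115, 102 and 117 FPKM in normal skin, 68.7, 70.1 and 93.3 at 6 weeks, 70.4, 88.5 and 82.8 at 20 weeks, and 70.5, 90.6 and 98.5 in treated skin. All 9 libraries of the other groups lay below all normal ones. Etfdh, the oxidoreductase that hands the electrons on to ubiquinone, stood at 34.1, 33.5 and 42.2 FPKM in normal skin, 25.01, 26.9 and 34.1 at 6 weeks, 32.4, 31.3 and 34.3 at 20 weeks, and 25.7, 29.5 and 30.6 in treated skin. The treated libraries lay below those of normal skin and of fibrotic skin at 20 weeks, and both fibrotic groups overlapped normal skin.

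**Figure D1:**
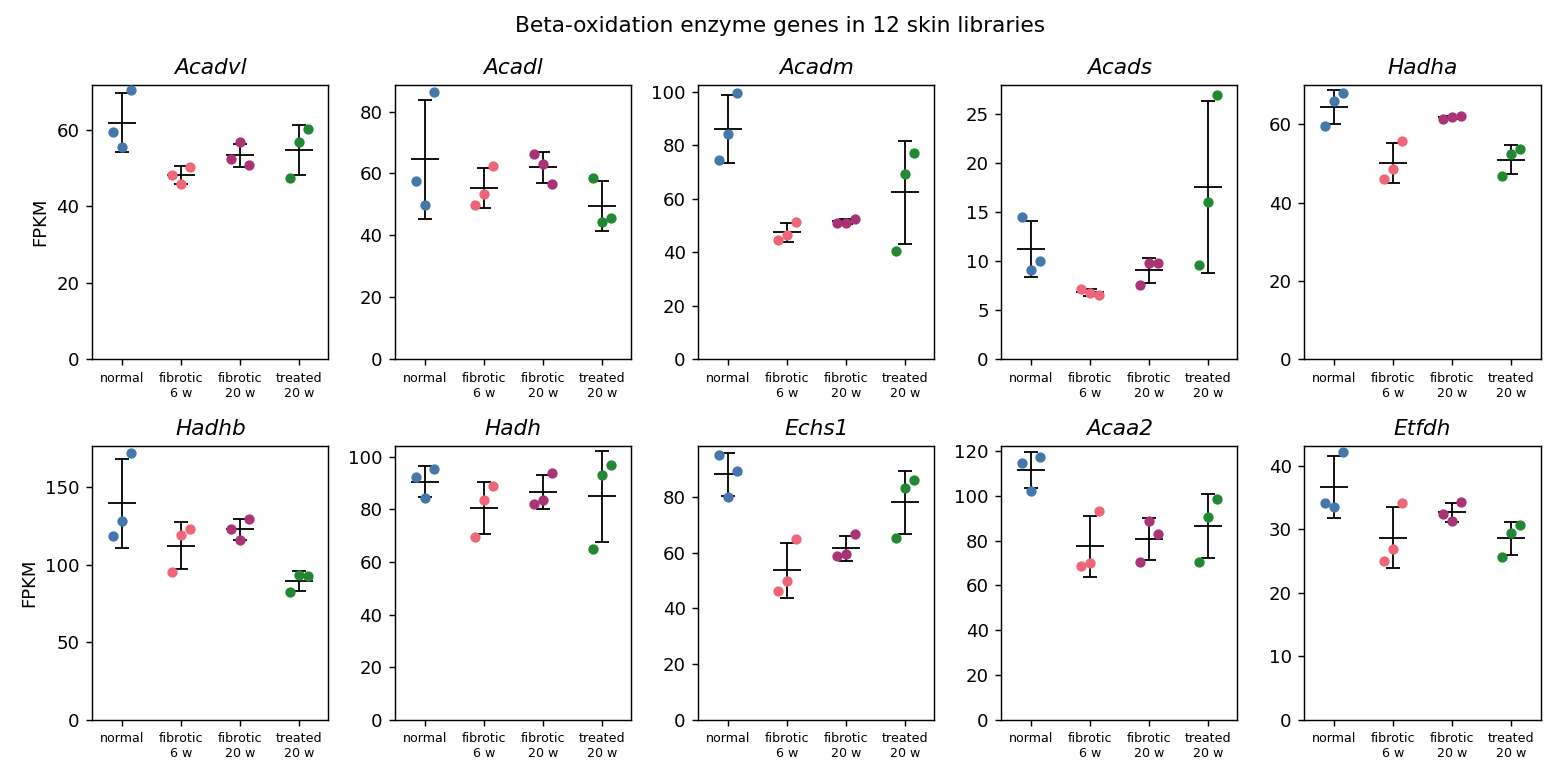
FPKM of each of the 10 genes (vertical axis, linear and starting at 0) in the 3 libraries of each group, in replicate order from left to right; points are libraries, and bars give the group mean and SD. The Acadm and Echs1 points of both fibrotic groups lie below all normal points, and the treated Acadm points range from 40.5 to 77.1.

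By mean level Hadhb was highest in all 4 groups, from 89.6 ± 6.39 FPKM (SD, n = 3) in treated skin to 140 ± 28.7 in normal skin. Acads was lowest in all 4, from 6.80 ± 0.334 at 6 weeks to 17.5 ± 8.77 in treated skin, and Etfdh was 9th in all 4. In normal skin the order between them was Acaa2, Hadh, Echs1, Acadm, Hadha, Acadl and Acadvl. The neighbours from Hadh to Acadm, and those from Hadha to Acadvl, overlapped in their libraries and so did not differ beyond their spread. Acadm moved from 5th in normal skin to 8th in both fibrotic groups, where its libraries overlapped those of the 7th gene, Acadvl. In treated skin each of the first 7 genes, from Hadhb to Hadha, overlapped the next. Over all 12 libraries the mean of Hadhb stood above 95.3% of the tested genes, that of Etfdh above 80.5% and that of Acads above 52.3%. The sum of the 10 genes was 720, 692 and 851 FPKM in normal skin, 500.3, 550.1 and 630.3 at 6 weeks, 605, 621 and 639 at 20 weeks, and 512, 629 and 668 in treated skin. Every normal sum exceeded every other sum.

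At 6 weeks, fibrotic skin had less RNA than normal skin from 5 of the 10 genes: Acadvl, Acadm, Hadha, Echs1 and Acaa2. None was called higher. The calls are from limma, at an adjusted p under 0.05, and of all genes tested 21.7% were called lower and 17.6% higher, so that calls are common in this comparison. The largest difference was that of Acadm, from 86.0 ± 12.8 to 47.4 ± 3.60 FPKM (mean ± SD, n = 3 each), or -0.84 as a log2 fold change (SE 0.205, adjusted p = 0.0104). Echs1 fell from 88.1 ± 7.71 to 53.7 ± 9.93 FPKM, or -0.72 on the log2 scale (SE 0.147, adjusted p = 0.00474). Acaa2 fell too, at -0.53 (SE 0.158, adjusted p = 0.0232), as did Hadha at -0.36 (SE 0.095, adjusted p = 0.0142) and Acadvl at -0.35 (SE 0.115, adjusted p = 0.0353). The other 5 had negative log2 fold changes that missed the threshold, among them Acads at -0.62 (adjusted p = 0.119), whose groups did not overlap, and Etfdh at -0.35 (adjusted p = 0.0588). With the replicate number as a block Etfdh was called lower (adjusted p = 0.0249). Hadhb stood at -0.30, Acadl at -0.19 and Hadh at -0.17, with adjusted p from 0.131 to 0.454. The median over the 10 genes was -0.354, beside -0.051 over all genes tested.

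The calls for Acadm and Echs1 at 6 weeks held under each alternative processing and with each library left out, with adjusted p up to 0.0389 and 0.0221. The count of 5 became 2, these same genes, without fibrotic 6-week replicate 1 or 2, and 3, with Hadha added, without normal replicate 1 or 3. Of all genes 15.8% and 14.5% were called lower without 6-week replicates 1 and 2, and 15.1% and 16.8% without normal replicates 1 and 3. Acadl changed the sign of its value, to 0.04, without normal replicate 3. Rescaling the libraries with the muscle fibre, hair shaft and wound keratinocyte lists and the epidermal keratins taken out shifted the median of all genes to -0.339 at 6 weeks and -0.316 at 20 weeks. On that scale 10 members were called lower at 6 weeks, beside 41.5% of all genes, and 7 at 20 weeks, beside 38.9%. Relative to the median of all genes the members' median was then -0.339 and -0.185, beside -0.303 and -0.149 on the deposited scale.

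At 20 weeks 3 of the 10 genes were called lower than in normal skin, Acadm, Echs1 and Acaa2, and none higher. Of all genes, 18.2% were called lower and 15.3% higher. Acadm averaged 51.5 ± 0.929 FPKM (SD, n = 3) in this group, or -0.72 from normal on the log2 scale (SE 0.205, adjusted p = 0.0234). Echs1 averaged 61.6 ± 4.44 FPKM, or -0.51 (SE 0.147, adjusted p = 0.0247). Acaa2 averaged 80.6 ± 9.29 FPKM, or -0.47 (SE 0.158, adjusted p = 0.0438). Values of the other 7 ran from -0.02 for Acadl to -0.26 for Acads, and their adjusted p from 0.188 to 0.946. The median of the 10 genes was -0.185, beside -0.036 over all genes, a distance of -0.149. Without normal replicate 3 these medians were -0.079 and -0.02, a distance of -0.059. These calls rest on few libraries: the count was 0 without normal replicate 3, without fibrotic 20-week replicate 1 or without its replicate 2. In these fits 12%, 12% and 12.6% of all genes were called lower. Acadm stood at -0.608, -0.71 and -0.712 in them, Echs1 at -0.498, -0.475 and -0.484, and Acaa2 at -0.43, -0.374 and -0.538. The count was 1 without normal replicate 1, where Acadm was called, and without normal replicate 2 or fibrotic 20-week replicate 3, where Echs1 was called. Of all genes 12.3%, 13.7% and 14% were called lower in those fits. Acaa2 also lost its call with no filter (limma, adjusted p = 0.0545) and under scaling by the median of ratios (0.0598). The same held without 6-week replicate 1 or 2 or treated replicate 2 (0.0517 to 0.0558), which are outside this comparison.

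With both times averaged against normal skin, 4 genes were called lower, Acadvl, Acadm, Echs1 and Acaa2, and none higher, beside 23.6% of all genes lower and 19.2% higher. The log2 fold change was -0.78 for Acadm (SE 0.178, adjusted p = 0.00653), -0.61 for Echs1 (SE 0.127, adjusted p = 0.00419), -0.50 for Acaa2 (SE 0.137, adjusted p = 0.0149) and -0.28 for Acadvl (SE 0.099, adjusted p = 0.0454). The count was 2, Acadm and Echs1, without normal replicate 1 or 3, beside 16.8% and 17.7% of all genes lower. The call for Acadvl was close to the threshold. It was lost under scaling by the median of ratios (adjusted p = 0.0811), without normal replicate 1 (0.0885) or 3 (0.198), without any single fibrotic library and without treated replicate 2 (0.0524 to 0.0872). These 3 comparisons share the normal libraries.

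**Figure D2:**
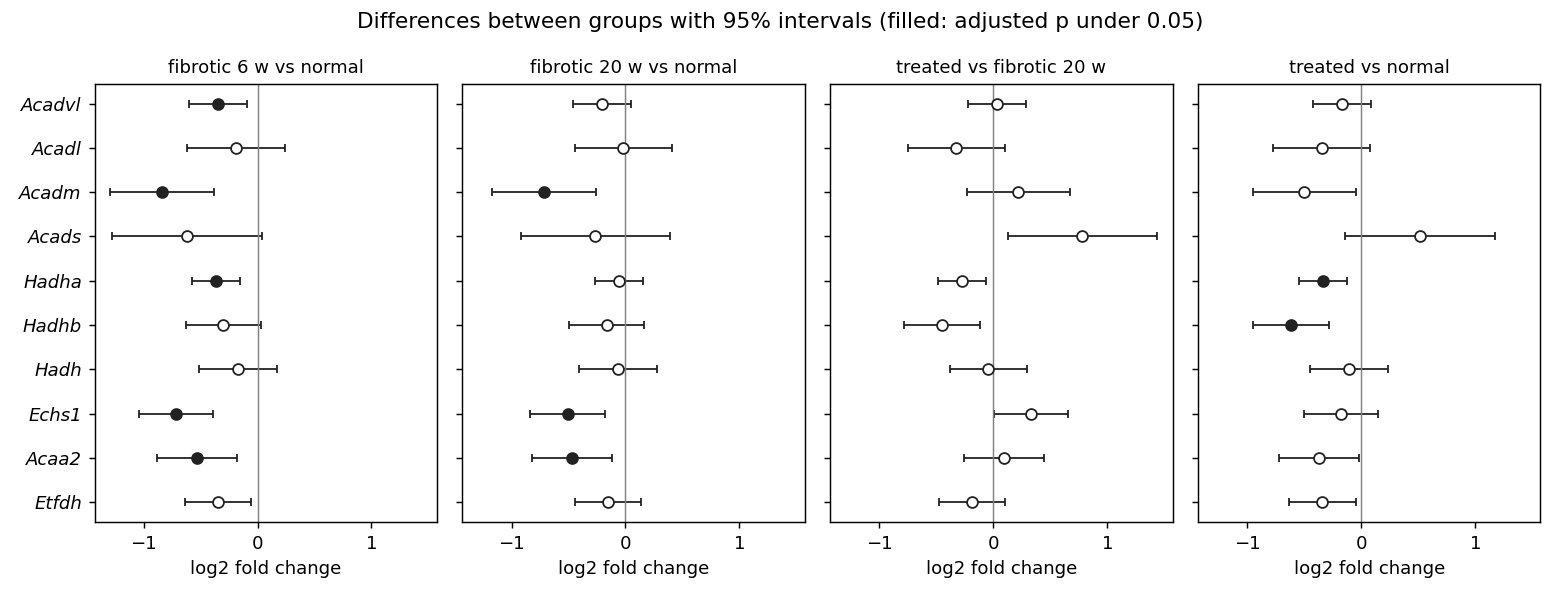
Log2 fold change of each gene on the log2(FPKM + 1) scale (horizontal axis) with its 95% interval from limma, in 4 comparisons of 3 against 3 libraries; filled points passed an adjusted p of 0.05. All 10 points lie left of 0 in both comparisons of fibrotic with normal skin, where Acadl at 20 weeks moved to 0.004 under scaling by the median of ratios, and Acadm lies farthest left in each.

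Between the fibrotic times no member was called by limma, as was the case for nearly all genes, of which 0.00727% were called higher and 0.0291% lower at 20 than at 6 weeks. All 10 log2 fold changes were positive, from 0.07 for Acaa2 to 0.35 for Acads, with a median of 0.155 beside 0.015 over all genes. Hadha was the only 1 of the 10 with an unadjusted p under 0.05. It averaged 50.1 ± 5.02 FPKM at 6 weeks and 61.8 ± 0.370 at 20 weeks (SD, n = 3), which is 0.30 on the log2 scale (95% interval 0.09 to 0.51, adjusted p = 0.141). For Acadm the interval of this difference ran from -0.34 to 0.58, and for Echs1 from -0.12 to 0.54. The counts of calls against normal skin do not by themselves show that the times differ. An F test of any difference among the 4 groups called 5 members, Acadm, Acads, Hadha, Hadhb and Echs1, with adjusted p from 0.0127 for Echs1 to 0.042 for Acads, beside 49.3% of all genes.

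Treated skin was compared with untreated fibrotic skin of the same time, 20 weeks, to ask how skin that had received the fibroblasts differed from skin that had not. No member was called by limma in either direction, beside 4.45% of all genes higher and 10.9% lower. At an unadjusted p under 0.05 there were 4 members, which did not share a direction. Acads stood at 0.78 on the log2 scale (95% interval 0.12 to 1.44, adjusted p = 0.0943) and Echs1 at 0.33 (0.002 to 0.66, adjusted p = 0.142). Hadhb stood at -0.45 (-0.78 to -0.12, adjusted p = 0.0638) and Hadha at -0.28 (-0.49 to -0.07, adjusted p = 0.0725), and for both the treated libraries lay below all untreated ones. Acadm stood at 0.22, Acaa2 at 0.09, Acadvl at 0.04, Hadh at -0.04, Etfdh at -0.19 and Acadl at -0.33. The median of the 10 was -0.005, beside -0.004 over all genes. The rescaling shifted the median of all genes to 0.246 here, and on that scale 2 members, Acads and Echs1, were called higher, beside 18.3% of all genes higher and 5.13% lower, while Hadha, Hadh and Etfdh turned from negative to positive values, of 0.02, 0.25 and 0.10. The members' median was then 0.041 above that of all genes. Hadh also turned positive, to 0.01, under scaling by the median of ratios.

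Treated replicate 1 stood apart from replicates 2 and 3. Its summed level of 9 wound keratinocyte genes was 10760 FPKM, against 1700 and 1241 in the others, 7249 to 26414 in fibrotic skin and 429 to 616 in normal skin. Its sum of 10 sebaceous gland genes was 476 FPKM, against 2041 and 2348 in the others, 314 to 404 in fibrotic and 777 to 1578 in normal skin. The part of this library's tissue makeup in its member levels was not tested. Without it, 3 members were called higher in treated than in fibrotic skin at 20 weeks and none lower: Acads at a log2 fold change of 1.13 (limma, adjusted p = 0.00487), Acadm at 0.50 (adjusted p = 0.0117) and Echs1 at 0.45 (adjusted p = 0.032). In that fit 17.8% of all genes were called higher and 20.3% lower, the median of the members was 0.134, and Hadh changed the sign of its value, to 0.14. Leaving out treated replicate 3 instead gave no call, beside 0.395% of all genes higher and 1.91% lower, and lowered the value of Acads to 0.43. Without normal replicate 3, which enters the pooled spread of the fit, 1 member was called, Hadhb, lower at -0.45 (adjusted p = 0.0368). Of all genes 3.67% were then called higher and 9.55% lower. The number of calls, among the members and over all genes, therefore depends on which libraries enter the fit.

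Against normal skin, treated skin had less RNA from both genes of the trifunctional protein and no other call among the 10, with none higher. Of all genes 13.2% were called lower and 7.57% higher. Hadhb fell, at -0.62 on the log2 scale (SE 0.149, adjusted p = 0.0194), and so did Hadha, at -0.34 (SE 0.095, adjusted p = 0.0337). Etfdh at -0.34 (adjusted p = 0.0865) and Acaa2 at -0.37 (adjusted p = 0.114) missed the threshold although their groups did not overlap. Acadm stood at -0.50 (adjusted p = 0.106), and Acads was the single gene with a positive value, 0.52 (adjusted p = 0.23), which was 0.16 without treated replicate 3. The count was 0 without normal replicate 3, beside 2% of all genes higher and 4.23% lower. It was 1, Hadhb, without normal replicate 2, fibrotic 20-week replicate 2 or 3, or treated replicate 2, beside 7.83% to 11.8% of all genes lower. Without treated replicate 1 it was 2, Hadhb lower and Acads higher, beside 14% of all genes lower and 8.58% higher. In that fit Acads stood at 0.86 (adjusted p = 0.0289) and Hadha at -0.28 (adjusted p = 0.0673), and Hadh had a positive value, 0.07. A fit of the 6 compared libraries alone called none, beside 0.256% of all genes higher and 0.813% lower. The call for Hadha was also lost under scaling by the median of ratios (-0.25, adjusted p = 0.0816) and under the rescaling (-0.36, adjusted p = 0.0615).

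The members did not keep a fixed proportion to each other, as ratios within a library show. These ratios were chosen after the values had been seen, carry no test and do not depend on the scaling of a library. The ratio of Acadm to Acadl, the medium- to the long-chain enzyme, was 1.15 to 1.69 in normal skin, 0.824 to 0.894 at 6 weeks and 0.768 to 0.929 at 20 weeks. In treated skin it was 0.692 in replicate 1, 1.57 in replicate 2 and 1.69 in replicate 3. Normal and fibrotic libraries did not overlap, and treated replicate 1 had the lowest ratio of all. The ratio of Echs1 to Hadha, hydratases of short and of long chains, was 1.21 to 1.60 in normal skin, 0.955 to 1.17 over the 6 fibrotic libraries and 1.39 to 1.60 in treated skin, here with replicate 1 apart from the fibrotic libraries. Hadhb to Hadha, subunits of the same protein, was 1.94 to 2.54 in normal skin, 2.07 to 2.46 at 6 weeks, 1.87 to 2.09 at 20 weeks and 1.73 to 1.79 in treated skin, below all other libraries. Acads made up 6.12%, 8.61% and 12.8% of the summed FPKM of the 4 acyl-CoA dehydrogenases in treated skin and 3.74% to 7.03% elsewhere.

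**Figure D3:**
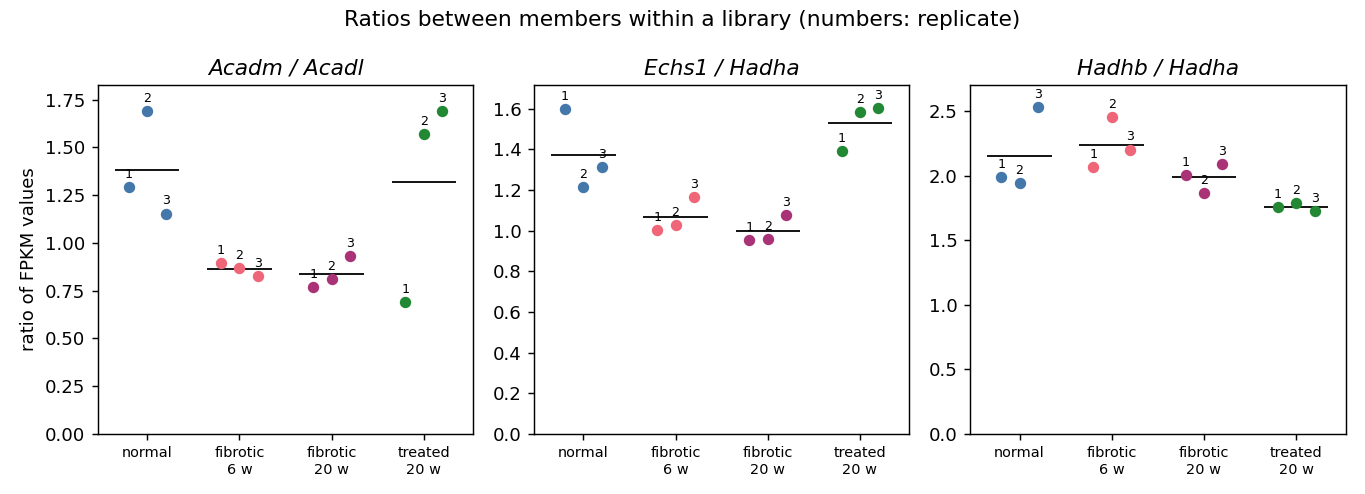
Ratios of FPKM values between pairs of members in the same library (vertical axis, from 0), by group; points are libraries with the replicate number above them, lines are group means. In the left panel treated replicate 1, at 0.692, lies with the fibrotic libraries while replicates 2 and 3 lie at 1.57 and 1.69.

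How alike the members were across libraries was described by Pearson's r, over all 12 libraries, between a gene and the mean of the other 9 on a standardised log2 scale. Etfdh had the highest r, 0.904, followed by Acadvl at 0.89 and Acaa2 at 0.885. Acadl at 0.308 and Acads at 0.301 had the lowest. Among 9651 other genes with a mean of at least 5 FPKM, those most like the mean pattern of the 10 members were Ganc (r = 0.955), Foxo4 (0.941), Dcaf8 (0.94), Pdk4 (0.94) and Hectd3 (0.93). Pdk4, a kinase that restrains pyruvate dehydrogenase, stood at 78.9, 11.7 and 134 FPKM in normal skin, 3.82, 3.21 and 15.9 at 6 weeks, 8.74, 13.2 and 12.7 at 20 weeks, and 2.02, 18.6 and 20.9 in treated skin. The most opposite were Cmtm7 (-0.965), Srgn (-0.947) and Vasp (-0.938). Within groups, after the group means were taken out, these r ran from 0.897 to 0.921 for the 5 like genes and from -0.921 to -0.869 for the 3 opposite ones. These genes were picked as extremes of r over the same 12 libraries, so the within-group values are not independent of that choice. The points of each r share libraries, tissue makeup and scaling.

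Other genes of fatty acid oxidation were counted in lists chosen by function. Of all genes 21.7% were called lower and 17.6% higher at 6 weeks, and 18.2% and 15.3% at 20 weeks. Of 10 auxiliary enzymes, 5 were called lower in fibrotic than in normal skin at 6 weeks, and 4 lower with 1 higher at 20 weeks. Eci1, an isomerase for unsaturated chains, fell, with log2 values of -1.28 at 6 weeks (adjusted p = 0.00581) and -1.17 at 20 weeks (adjusted p = 0.0106). Decr1, a reductase for unsaturated chains, fell likewise, at -1.23 (adjusted p = 0.0229) and -1.25 (adjusted p = 0.0248). Etfa and Etfb, the flavoprotein that passes electrons to the Etfdh product, stood at 0.02 and -0.24 at 6 weeks, with adjusted p of 0.919 and 0.498. The list's medians were -0.487 and -0.391 at the 2 times, farther below 0 than those of the members. In treated against fibrotic skin the same list had 1 call, Hsd17b10, higher by 0.53 (adjusted p = 0.0393), beside 4.45% of all genes higher. Without treated replicate 1 it had 5 calls, all higher, beside 17.8% of all genes.

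Of 7 carnitine shuttle genes, which move acyl groups into the matrix, 1 was called higher and 2 lower at 6 weeks, and 2 higher and 2 lower at 20 weeks. Cpt2, the inner-membrane transferase, rose by 0.49 (adjusted p = 0.0098) and 0.64 (adjusted p = 0.00352), against the direction of the members downstream of it, while Crat, which makes and breaks short acylcarnitines, fell, at -1.28 (adjusted p = 0.0288) and -1.42 (adjusted p = 0.0225). Of 3 malonyl-CoA genes 2 were called lower at 6 weeks, Acacb and Mlycd, and 0 at 20 weeks. Of 12 peroxisomal genes 5 were called lower at 6 weeks, and 2 lower and 1 higher at 20 weeks. Of 4 branched-chain and lysine acyl-CoA dehydrogenases, relatives of the members, 1 was called lower at 6 weeks, Acadsb at -0.69 (adjusted p = 0.00039), and 2 at 20 weeks. All 5 ketone body genes were called at both times, 2 higher and 3 lower, with Bdh1, which interconverts the ketone bodies, higher by 2.17 (adjusted p = 0.000176) at 6 weeks. Of 8 PPAR and PGC-1 regulators 1 was called higher and 3 lower at 6 weeks, with Ppara, a receptor known to drive genes of fatty acid oxidation, at -2.32 (adjusted p = 0.000868) and Ppard at 1.04 (adjusted p = 0.0058). At 20 weeks 2 of these 8 were called in each direction.

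Of 22 citric acid cycle and respiratory chain genes, which take up the acetyl-CoA and electrons that the members release, 1 was called at 6 weeks, Cs, lower at -0.42 (adjusted p = 0.0131), and 0 at 20 weeks. The list's medians were 0.031 and 0.039. In treated against fibrotic skin the carnitine list had 1 call higher and 2 lower, the peroxisomal list 1 in each direction, the PPAR and PGC-1 list 1 higher, and the malonyl-CoA, branched-chain, ketone body and citric acid cycle lists 0. Without treated replicate 1 these became 2 and 2 for the carnitine list, 6 higher and 1 lower for the peroxisomal list, 3 higher and 1 lower for the PPAR and PGC-1 list, 2 higher for the malonyl-CoA list, 2 higher for the branched-chain list, 1 in each direction for the ketone body list and 3 higher for the citric acid cycle list. In that fit 17.8% of all genes were called higher and 20.3% lower, against 4.45% and 10.9% with all libraries. Against normal skin, treated skin had 1 ketone body gene higher and 1 lower, and 3 regulators higher and 1 lower. It had 2 peroxisomal genes, 1 branched-chain gene and 1 citric acid cycle gene lower, and no call in the other 3 lists. Of all genes 7.57% were called higher and 13.2% lower there.

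**Figure D4:**
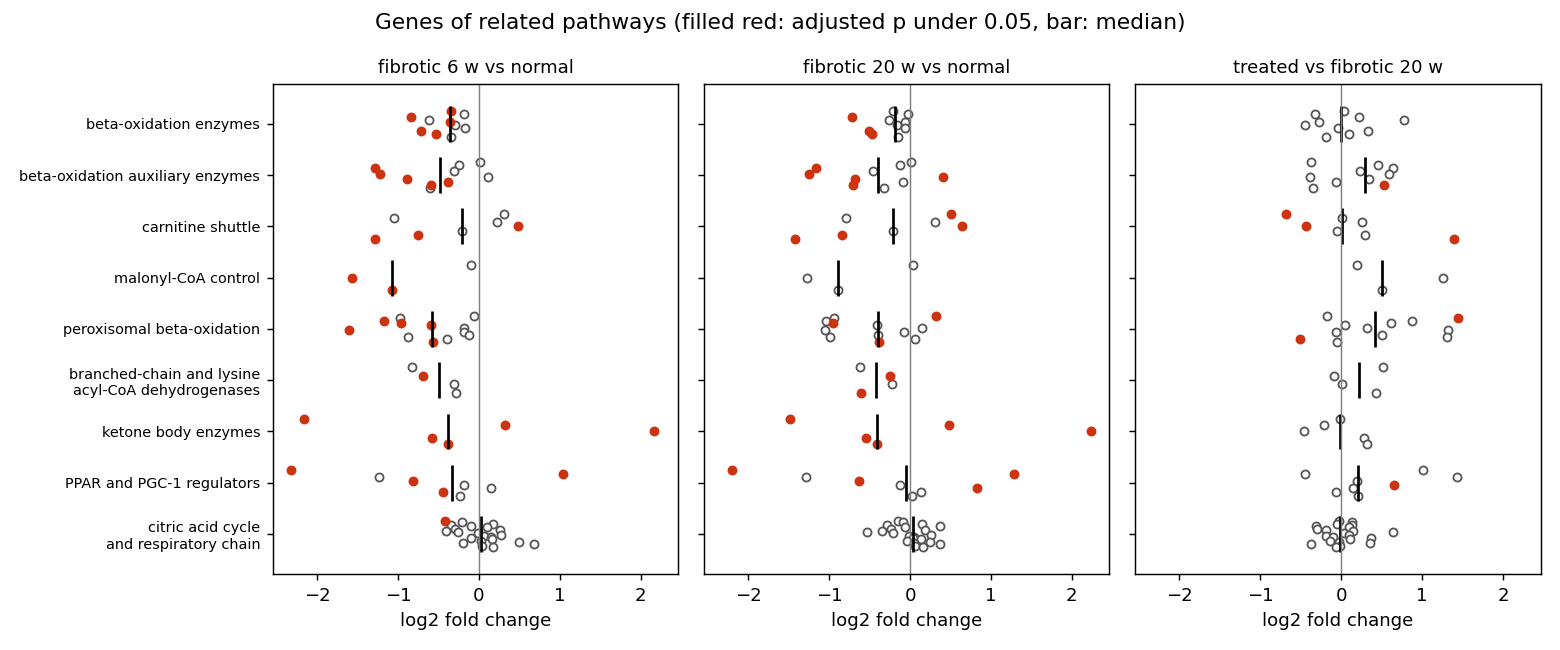
Log2 fold change on the log2(FPKM + 1) scale (horizontal axis) of every tested gene of the beta-oxidation enzymes and 8 related lists, in 3 comparisons; each point is a gene, filled red where the adjusted p was under 0.05, and bars are list medians. The beta-oxidation enzymes lie left of 0 in both comparisons with normal skin, and the 22 citric acid cycle and respiratory chain genes lie around 0.

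Markers of cell types with different fatty acid use moved with the groups. The sum of the 10 sebaceous gland genes, a gland rich in lipid, was lower in all 6 fibrotic libraries than in all normal ones, with 9 of 10 genes called lower at 6 weeks and 7 at 20 weeks, and 7 were called higher in treated than in fibrotic skin. Wound keratinocyte genes were called higher in fibrotic than in normal skin for 8 of 9 at both times. Macrophage genes were called higher for 7 of 8 at 6 weeks and 4 of 8 at 20 weeks, and their sum was 104 to 214 FPKM in normal skin, 303 to 795 at 6 weeks, 347 to 375 at 20 weeks and 209 to 252 in treated skin. Of 8 epidermal keratinocyte genes 5 were called higher and 1 lower at 6 weeks, and of 8 hair shaft genes 7 were called higher then and 0 at 20 weeks. For these lists, the part in the member levels was not tested.

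Skeletal muscle, a tissue known for much beta-oxidation, was taken along in varying amounts. The sum of 12 muscle fibre genes was 5070, 190 and 8378 FPKM in normal skin, 1570, 83.2 and 2639 at 6 weeks, 904, 1980 and 4026 at 20 weeks, and 117, 1899 and 3232 in treated skin. None of the 12 was called in any comparison. The list's median log2 fold change against normal skin was -1.522 at 6 weeks, -0.054 at 20 weeks and -1.068 in treated skin. In treated against fibrotic skin it was -1.045. With so wide a spread between libraries, the lack of calls does not show equal muscle content. Normal replicate 3, with the highest muscle sum, also had the highest level of 8 members among the normal libraries. With the 3 libraries under 200 FPKM of muscle genes left out, a choice made after seeing the data, 4 members were called lower at 6 weeks, Acadvl, Acadm, Echs1 and Acaa2, beside 18.6% of all genes, and the same 3 as before at 20 weeks, beside 19.8%. Under that choice 3 were called higher in treated than in fibrotic skin, beside 15.6% of all genes higher and 18.1% lower. Treated replicate 1 is among the libraries left out, and no fibrotic 20-week library is. The 3, Acadm, Acads and Echs1, therefore had the same fold changes as in the fit without treated replicate 1, and are no separate result. Between treated and normal skin 0 were called, beside 3.32% higher and 5.5% lower.

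The adipocyte sum, over 10 genes, was 1569 to 2813 FPKM in normal skin, 2120 to 5326 at 6 weeks, 1328 to 2137 at 20 weeks and 1173, 3161 and 5967 in treated skin, and no gene of this list was called at either fibrotic time, while 2 were called lower with both times averaged. The list's median log2 fold change was -0.995 at 6 weeks and -0.933 at 20 weeks, against the direction of the 6-week sums. In treated against fibrotic skin 2 of the 10 were called higher, with a median of 1.63, and 9 of 10 without treated replicate 1, with a median of 2.34. Ucp1, which defines brown fat, was at most 0.317 FPKM in any library, while the sum of the 4 brown fat genes was 110 to 137 FPKM in normal skin, 24.8 to 47.7 in fibrotic skin, 37.5 in treated replicate 1 and 148 and 155 in replicates 3 and 2. Elovl3 is in this list and also among the sebaceous gland genes, so these sums share a gene and do not show that brown fat moved with the groups. The dermal fibroblast sum was 654 to 1066 FPKM in normal skin, 860 to 1741 at 6 weeks, 457 to 1073 at 20 weeks and 599 to 1175 in treated skin. The 5 endothelial genes had no call with all libraries. Without treated replicate 1, 4 of the 5 were called higher in treated than in fibrotic skin, with a median of 0.855, and 1 higher than in normal skin. In the same fit all 10 sebaceous gland genes were called higher and 8 of 9 wound keratinocyte genes lower in treated than in fibrotic skin. Of all genes 17.8% were called higher and 20.3% lower in that fit. The part of these cell types in its member calls was not tested.

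**Figure D5:**
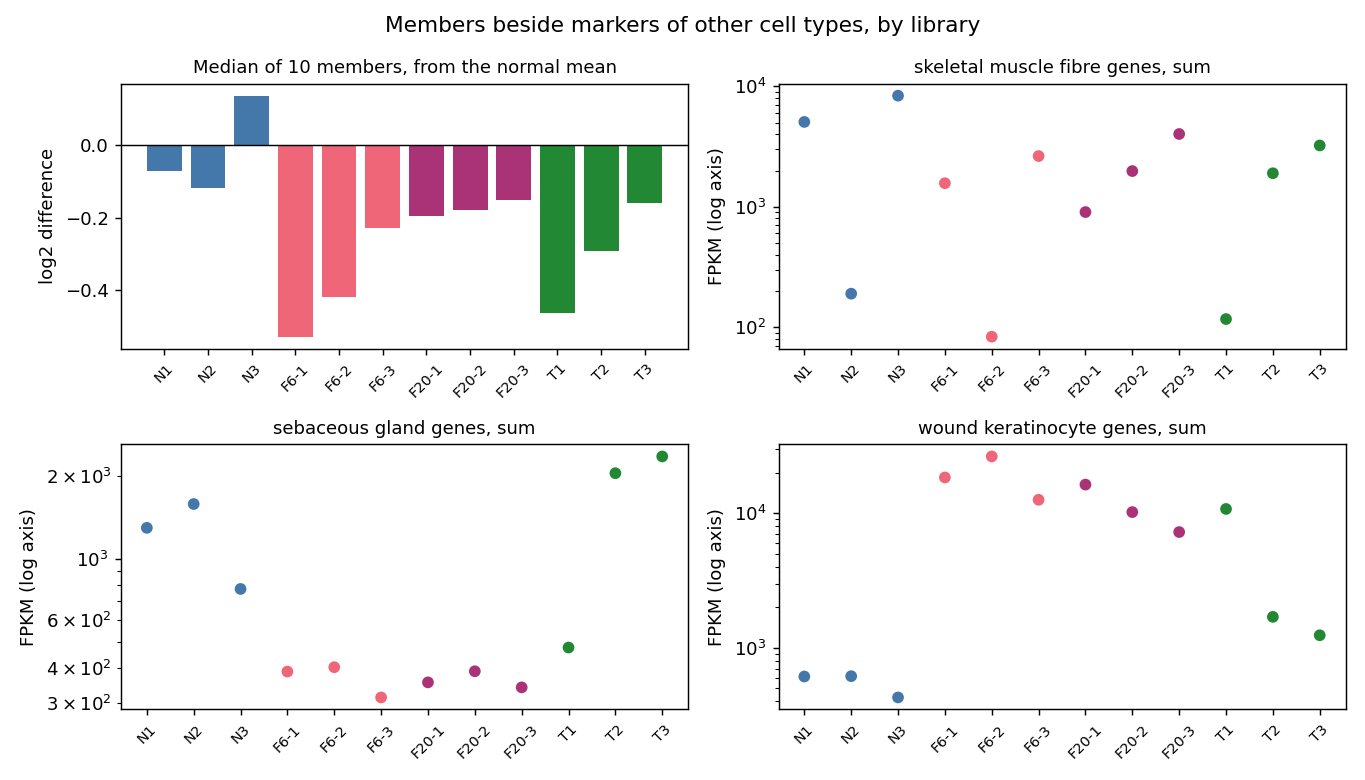
By library, in the order normal (N), fibrotic at 6 weeks (F6), fibrotic at 20 weeks (F20) and treated (T): the median over the 10 members of the log2 difference from the normal mean (bars from 0), and the summed FPKM of muscle, sebaceous gland and wound keratinocyte genes (points, log axes). Treated replicate 1 has a wound keratinocyte sum of 10760 FPKM, among the fibrotic libraries, and treated replicates 2 and 3 have 1700 and 1241.

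In the GENCODE M21 annotation of build GRCm38, exons of 4 members overlap exons of a coding gene on the other strand. Acadvl, at chr11:70010183-70015411, overlaps Dvl2, which averaged 3.11 to 6.37 FPKM over the groups. Echs1, at chr7:140105710-140116476, overlaps Paox, at 16.1 to 22.1 FPKM. Etfdh, at chr3:79603788-79629500, overlaps 4930579G24Rik, at 2.33 to 2.80 FPKM, and Hadha, at chr5:30118304-30155162, overlaps Garem2, listed under its older symbol Gareml at no more than 0.239 FPKM. The libraries were made with a kit that keeps the strand, but whether the counting used it is not given in the sources used here. Reads of these pairs may therefore not have been told apart. Against normal skin, the log2 fold change of Paox was -0.16 at 6 weeks and 0.28 at 20 weeks, with adjusted p of 0.313 and 0.0932, beside -0.72 and -0.51 for Echs1. Dvl2 stood at -0.619 and -0.508 (limma, adjusted p of 0.0621 and 0.123), beside -0.348 and -0.205 for Acadvl, the same direction. With both times averaged Dvl2 was called lower, at -0.563 (adjusted p = 0.0491), as was Acadvl. 4930579G24Rik stood at 0.08 and -0.041. The part of shared reads in the member values was not tested. The remaining members whose place is given here, Acadl at chr1:66830839-66863277, Acadm at chr3:153922357-153944632, Acads at chr5:115110299-115119346, Hadhb at chr5:30155248-30184593 and Hadh at chr3:131233419-131272101, overlap no coding gene.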

How the data were processed

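RNA-seq was done on 12 libraries of mouse skin. Per the labels' protocols, RNA with an integrity number above 8.0 was selected on poly-T beads, 250 ng each, made into stranded libraries and sequenced paired-end for 101 cycles, with 5 samples to a pool. Which library was in which pool is not given in the sources used here, so no batch was tested. The authors deposited a single table of FPKM values per gene. The submitters' processing notes name TopHat2 2.0.13 and Bowtie2 2.2.3, then Cufflinks 2.2.1, R 3.1.1, SAMtools 1.0, FastQC 0.11.2 and cutadapt 1.7.1, and the build mm10. What each did, which annotation served and whether libraries were scaled to each other is not given in the sources used here. Per the labels' protocols, sequencing aimed at a minimum of 30000000 reads per sample. The depth reached is unknown, so no counting error is given.

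Values were analysed as log2(FPKM + 1), on which fold changes of low genes are understated. Genes reaching 1 FPKM in 3 or more libraries, 13761 in all, entered 1 limma model (limma 3.58.1, R 4.3.3) of the 12 libraries, with a mean per group and an intensity trend. Tests were 2-sided, Benjamini-Hochberg adjustment was made per comparison, and an adjusted p under 0.05 was called. Single genes were not tested by permutation, since 3 against 3 libraries cannot give an exact p below 0.1. Deviations from the group means correlated between same-numbered libraries of normal and 6-week skin (0.159, 0.227 and 0.108). Over all 18 pairs of groups and numbers such correlations ran from -0.35 to 0.291. The script was tested on simulated data. Lists are described by counts and medians only. All 10 members are named, and from each list up to 3 called genes with the largest change per comparison. Etfa and Etfb were named after their values were seen, as were the genes overlapping a member. For 1 further gene under this rule no result is reported here; list counts still contain it. The members, lists and tests were chosen with earlier results of these data known.

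Alternatives were a pseudocount of 0.1, no filter, a minimum mean of 5 FPKM, median-of-ratios scaling, rescaling to equal totals with muscle fibre, hair shaft and wound keratinocyte genes and epidermal keratins taken out (totals without short RNAs), a block for the replicate number, a fit of the compared libraries only, and each library left out in turn. One more, leaving out the 3 libraries low in muscle genes, was added after seeing the data.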

Additional observations from a re-analysis of the deposited data

How the results depend on the processing

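The counts of members called at 6 weeks, at 20 weeks, at both times, in treated against fibrotic, in treated against normal skin and among any groups were 5, 3, 4, 0, 2 and 5. After rescaling without muscle, hair shaft, wound keratinocyte and epidermal keratin genes they were 10, 7, 9, 2 (both higher), 1 and 8, beside 41.5%, 38.9% and 45.9% of all genes lower, 18.3% higher, 13.6% lower and 62.4% with any difference. Scaling by the median of ratios left 1 call in treated against normal skin, beside 9.3% of all genes lower. A fit of only the libraries compared left 0 there, beside 0.813% of all genes lower. Without the 3 libraries low in muscle genes, chosen after seeing the data, treated against fibrotic skin had 3 calls, treated against normal 0 and any difference 3. Beside these stood 15.6% of all genes higher, 5.5% lower and 45.5% with any difference. Treated replicate 1 is among the libraries left out there. The counts without 1 library ran from 2 to 7, 0 to 3, 2 to 5, 0 to 3, 0 to 3 and 2 to 6 in the same order. In these fits the share of all genes called lower ran from 14.5% to 26.3% at 6 weeks and from 12% to 22.8% at 20 weeks. Between the fibrotic times the count was 0 under every alternative run, while the share of all genes called varied. With only the libraries compared 2.48% were called higher and 1.6% lower at 20 than at 6 weeks. Without treated replicate 1 these shares were 3.02% and 0.991%, against 0.00727% and 0.0291% in the main fit. With a replicate block in the fit of all 12 libraries the counts were 6, 3, 4, 0, 3 and 6. Beside them 20.3%, 16.8% and 22.2% of all genes were called lower at 6 weeks, at 20 weeks and at both times. Treated against fibrotic skin had 2.36% higher and 7.56% lower, treated against normal skin 11% lower, and any difference 40.5%. Besides Etfdh at 6 weeks, the block added calls for Etfdh at both times (adjusted p = 0.0433) and in treated against normal skin (0.0451), and ended that of Acadvl at both times (0.055). Outside the pairs of normal with 6-week skin, the correlations between deviations of same-numbered libraries ran from -0.35 to 0.291. What a shared number stands for is not known.

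Some small values changed sign. Under scaling by the median of ratios these were Acadl at 20 weeks, 0.004, and Hadh in treated against fibrotic skin, 0.014. After the rescaling they were, in treated against fibrotic skin, Hadha at 0.015, Hadh at 0.249 and Etfdh at 0.098. Without the 3 libraries low in muscle genes Hadh stood at 0.135 against fibrotic and 0.018 against normal skin. Without 1 library Acadl ran from -0.353 to 0.039 at 6 weeks, -0.185 to 0.207 at 20 weeks and -0.269 to 0.123 at both times. Acaa2 ran from -0.012 to 0.206 between the fibrotic times. In treated against fibrotic skin Acadvl ran from -0.035 to 0.132, Acaa2 from -0.005 to 0.233 and Hadh from -0.147 to 0.135, and against normal skin Hadh ran from -0.214 to 0.069. For these alternatives the cause was not tested. The depth reached is not known, so no limit from it is given.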
